A study of Mus musculus with 12 samples.

Results

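The 10 genes described here, Gata2, Runx1, Tal1, Lyl1, Lmo2, Fli1, Erg, Gfi1b, Meis1 and Mecom, encode transcription regulators of the blood stem cell. They were chosen by gene name, as a list of known regulators. No measured value entered the rule, but the choice was made with earlier results of these data known. All 10 had a row among the 20457 genes of the deposited expression table, and all 10 passed the filter on low values that left 14803 genes to test. Hematopoietic stem cells (HSCs) were sorted from the bone marrow of C57BL/6 mice, either young (2 months old) or old (28 months old). The sort separated cells without and with surface IL27RA, the receptor subunit that binds the cytokine IL27. This gave 4 groups of 3 libraries each, young IL27RA-, young IL27RA+, old IL27RA- and old IL27RA+, with 50 cells per library amplified by Smart-Seq2, a full-length cDNA method. The labels name no transgene, deletion or treatment, and the stem cell gates are not named in the sources used here.

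Gata2, Runx1, Tal1, Lyl1, Lmo2, Fli1 and Erg are known as the heptad, since their proteins bind many of the same enhancers in blood stem and progenitor cells, including enhancers of their own genes. Tal1 and Lyl1 pair with E proteins to bind E-box motifs, Lmo2 bridges such pairs to GATA factors without touching DNA, Fli1 and Erg bind ETS motifs, and Runx1 binds DNA with its partner Cbfb. Gfi1b is a repressor that acts through the demethylase Kdm1a and its CoREST partners, Meis1 is a homeodomain protein that binds DNA together with Hox proteins, and Mecom (also called Evi1) is a zinc finger protein needed to keep stem cells in adult marrow.

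Several of these genes are described as controlled by the factors themselves, so the sequence just before their start sites was read. RefSeq windows (build GRCm38.p6) were found for 8 of the 10 genes, with 14 start sites in all, and the 250 bases before each start were searched on both strands. The windows of Lyl1 and Gfi1b are printed because Lyl1 had the smallest p-value of the 10 genes between the ages and Gfi1b the largest difference between them. Both run 5′ to 3′ in the direction of the gene, on chr8:84701207-84701456 (plus strand) and chr2:28621983-28622232 (minus strand), and capitals mark motif letters.

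Lyl1: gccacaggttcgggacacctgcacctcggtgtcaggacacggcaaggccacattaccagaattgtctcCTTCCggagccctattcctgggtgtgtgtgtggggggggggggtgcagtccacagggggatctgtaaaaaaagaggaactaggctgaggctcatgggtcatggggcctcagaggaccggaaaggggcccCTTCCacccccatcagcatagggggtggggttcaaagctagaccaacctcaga

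Gfi1b: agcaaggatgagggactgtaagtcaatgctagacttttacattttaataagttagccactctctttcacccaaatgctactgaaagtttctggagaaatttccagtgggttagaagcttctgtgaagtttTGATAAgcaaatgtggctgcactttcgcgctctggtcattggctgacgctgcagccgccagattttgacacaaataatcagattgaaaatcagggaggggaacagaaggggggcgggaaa

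The Lyl1 window held 2 ETS motifs (GGAAG, printed above from the other strand as CTTCC), and the Gfi1b window held 1 GATA motif (TGATAA). Across the 14 start sites, the ETS motif occurred in 7, against 64.1% of all 32851 RefSeq promoter windows of the same length. A GATA motif (AGATAA or TGATAA) occurred in 4 of the 14, against 16.6% of all windows. A RUNX motif (TGTGGT or TGCGGT) occurred in 1 of the 14 against 18.6% of all windows. An E-box (CAGCTG or CAGATG) also occurred in 1, against 25.5%, and a MEIS motif (TGACAG) in 2, against 15.9%. Each motif was counted without regard to overlap with another, and CAGCTG reads the same on both strands. These are matches of letters only, and binding was not measured.

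The libraries held 11669083 to 24153167 reads in genes. Correlations between libraries spanned 0.786 to 0.869 within groups and 0.752 to 0.863 across groups. The labels of old IL27RA- replicate 1 conflict (1 of them reads young), and it was kept in the old group by its title and stated age. That library also stood apart by its antibody and B cell transcripts, which summed to 373931 normalized counts against 687 to 1448 in the other libraries. Its fitted library weight (0.544) and that of young IL27RA- replicate 2 (0.436) were the lowest of the 12, and with both left out 0 of the 10 genes passed the test in any comparison. Since no label ties libraries to separate animals, the p-values cover only the spread among the libraries, part or all of which may be technical. The receptor's own mRNA gave no check of the sort. The Il27ra difference between the fractions was -0.11 on the log2 scale in young cells (95% interval -0.80 to 0.57) and -0.08 in old cells (-0.77 to 0.61). Markers of stem cells, among them Kit, Ly6a, Procr, Slamf1 and Fgd5, were present in every library, with a summed level between 50367 and 74955 normalized counts.

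Levels of different genes were compared as normalized counts (reads divided by a library size factor) per kilobase of merged exons in GENCODE M21. On this scale Lmo2 stood highest of the 10, at 12475 ± 1898 per kilobase (SD over the 12 libraries). This was percentile 99.8 among the tested genes that have a length. Lyl1 followed at 3724 ± 764 per kilobase, and every Lmo2 library lay above every Lyl1 library. Fli1 (1944 ± 350), Gata2 (1633 ± 552), Meis1 (1215 ± 159), Gfi1b (1101 ± 549) and Erg (1045 ± 249) came next per kilobase, and each overlapped its neighbour in the order. Runx1 (335 ± 59.1), Mecom (290 ± 67.0) and Tal1 (196 ± 39.1) were the lowest per kilobase and overlapped one another in turn. Every library of Runx1 lay below every library of Erg on this scale. Tal1, the lowest of the 10, was at percentile 69.2, and the median tested gene stood at 96.0 normalized counts per kilobase.

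**Figure D1:**
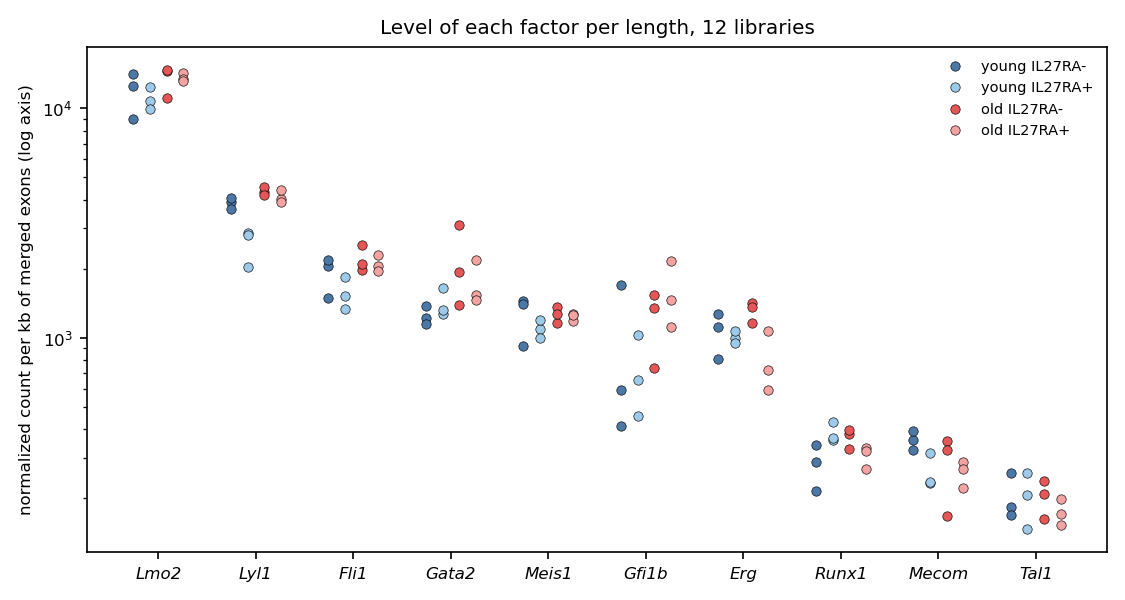
Normalized count per kilobase of merged exons (log axis) for each factor, with 1 point per library coloured by group. Lmo2 lies above all the others in every library, and Runx1, Mecom and Tal1 lie below Erg.

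The spread of each gene among libraries of 1 group was small for 9 of the 10. Their within-group SD, on the log2 scale, was 0.15 for Lyl1 and at most 0.35 for the others (Gata2), which placed them between percentiles 0.372 and 14.6 of the tested genes. Gfi1b had a within-group SD of 0.71, at percentile 49.8, and the median tested gene had 0.71. By level per kilobase the 10 genes stood at percentiles 69.2 to 99.8, and their spread was not compared with genes of like level. The small spread is therefore not read as particular to them. By GENCODE M21 (build GRCm38), Lmo2 and Gfi1b lie on chromosome 2 and Runx1 and Erg on chromosome 16, while the others lie on chromosomes 3 (Mecom), 4 (Tal1), 6 (Gata2), 8 (Lyl1), 9 (Fli1) and 11 (Meis1). Some exons overlap other genes, and the sources used here do not state how the counting treated strand. Of Meis1's 10532 merged exon bases, 896 overlap the antisense gene Gm16140 and 1029 the gene Gm37818 on the same strand. Mecom shares 81 exon bases with the antisense Mecomos, Runx1 shares 106 with the antisense Gm26626, and Lyl1 shares 4 with Nfix. Counts of these genes, Meis1 above all, may therefore hold reads of their neighbours.

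None of the 10 genes passed the test, limma's moderated test with Benjamini-Hochberg adjustment over the 14803 genes at 0.05, in any of the 7 comparisons. The share of all tested genes that passed was 0.0203% for IL27RA+ against IL27RA- cells in young mice and likewise 0.0203% in old mice. It was 0.669% for old against young IL27RA- cells, 0.426% for old against young IL27RA+ cells, 1.85% for the age difference averaged over both fractions and 0.189% for the sort difference averaged over both ages. For the interaction, the difference between the age effects of the fractions, it was 0%. A count of 0 among 10 genes is therefore close to the background in each comparison. At an unadjusted p under 0.05 the members numbered 2, 1, 1, 2, 4, 2 and 1 in the order just given, and the shares of all genes were 8.23%, 5.38%, 12.5%, 8.88%, 15.1%, 7.98% and 5.19%. An added fit with limma voom on the recovered reads also passed 0 of the 10 in each comparison. A difference that misses the threshold does not show equal levels, because the 95% intervals of the pairwise differences reached 0.39 (Lyl1) to 1.01 (Gfi1b) to either side on the log2 scale.

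**Figure D2:**
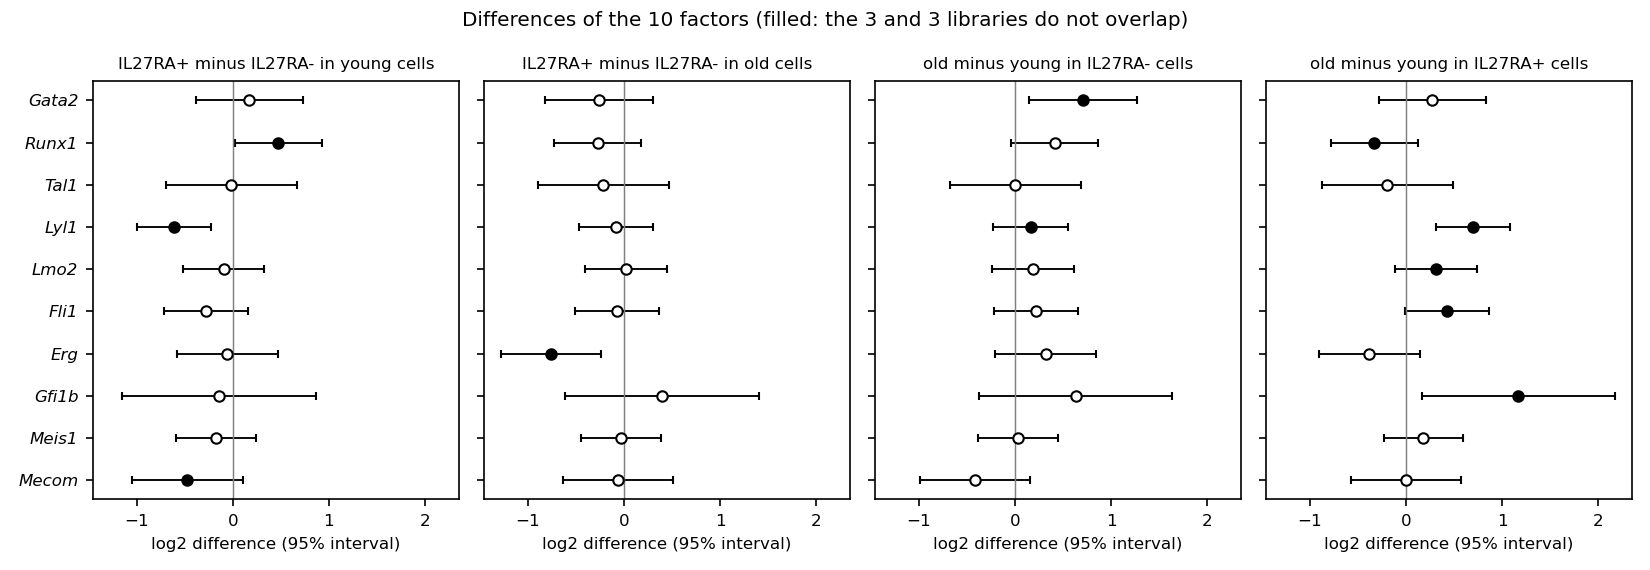
Log2 difference of each factor with its 95% interval in the 4 comparisons between groups of 3 libraries, where filled points mark groups whose libraries do not overlap. Lyl1 and Gfi1b lie farthest to the right in old against young IL27RA+ cells, and Erg lies farthest to the left in old IL27RA+ against IL27RA- cells.

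Lyl1, a basic helix-loop-helix factor that can stand in for Tal1 in adult stem cells, stood lowest in young IL27RA+ cells. It had 7047, 6559 and 7350 normalized counts in the young IL27RA- libraries and 5156, 3666 and 5026 in the young IL27RA+ libraries. The old libraries held 7746, 8151 and 7560 (IL27RA-) and 7243, 7936 and 7010 (IL27RA+). Every young IL27RA+ library lay below every library of the other groups. Young IL27RA+ minus young IL27RA- cells gave a log2 difference of -0.61 ± 0.18 (SE, 95% interval -1.0 to -0.22, adjusted p = 0.385). Between old and young IL27RA+ cells it was 0.69 ± 0.18 (0.31 to 1.08, adjusted p = 0.159), and between old and young IL27RA- cells 0.16 ± 0.18, with libraries that also did not overlap. The interaction was 0.53 ± 0.26 (-0.02 to 1.08, adjusted p = 0.942), so a difference between the age effects of the 2 fractions was not shown. Averaged over the fractions, old minus young was 0.43 ± 0.13 (0.15 to 0.70, adjusted p = 0.114), the smallest adjusted p of the 10 genes in any comparison. The summed level of cell cycle genes ranged from 4214 to 10957 in young IL27RA+ libraries and from 10067 to 15188 in old IL27RA+ libraries. Macrophage markers summed to 4034 to 5562 in young IL27RA+ and to 1172 to 1769 in young IL27RA- libraries. In the old IL27RA+ libraries they summed to 4442, 1111 and 5815, and in old IL27RA- libraries to 591 to 1407. The part of either marker list in the Lyl1 differences was not tested.

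Tal1, the other helix-loop-helix factor and a founding regulator of blood cells, showed no group that stood apart. Its normalized counts ran from 641 to 1133 in young IL27RA+ libraries, from 742 to 1131 in young IL27RA-, from 711 to 1045 in old IL27RA- and from 673 to 869 in old IL27RA+ libraries, and all 4 ranges overlapped. Its pairwise log2 differences lay between -0.21 and 0.004, each with an interval of 0.68 to either side. Lmo2, the adaptor of the complex, held 19529 to 30648 normalized counts in young IL27RA-, 21443 to 26720 in young IL27RA+, 24103 to 31805 in old IL27RA- and 28360 to 30754 in old IL27RA+ libraries. Every old IL27RA+ library lay above every young IL27RA+ library, with a log2 difference of 0.31 ± 0.20 (SE, 95% interval -0.12 to 0.74, adjusted p = 0.724). The other 3 pairwise differences of Lmo2 lay between -0.10 and 0.19.

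Gata2, a zinc finger factor that stem cells need to survive and divide, was spread widely in the old cells. The young libraries held 6602, 6217 and 7392 normalized counts (IL27RA-) and 8869, 6839 and 7151 (IL27RA+). The old libraries held 7509, 10495 and 16728 (IL27RA-) and 8283, 7877 and 11789 (IL27RA+). Every old IL27RA- library lay above every young IL27RA- library, while the IL27RA+ groups overlapped. The log2 difference between the ages was 0.71 ± 0.26 in IL27RA- cells (SE, 95% interval 0.15 to 1.26, adjusted p = 0.282), 0.28 ± 0.26 in IL27RA+ cells and 0.49 ± 0.18 averaged over both (0.10 to 0.89, adjusted p = 0.219). Replicate 3 was the highest library in both old groups. Leaving out 1 library moved the IL27RA- difference to between 0.40 (without old IL27RA- replicate 3) and 0.98 (without old IL27RA- replicate 1).

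Gfi1b, a repressor needed in red cell and platelet precursors, varied most from library to library. The young libraries held 3096, 756 and 1084 normalized counts (IL27RA-) and 1200, 839 and 1886 (IL27RA+), and the old ones 1355, 2804 and 2480 (IL27RA-) and 2047, 2686 and 3936 (IL27RA+). Every old IL27RA+ library lay above every young IL27RA+ library, and young IL27RA- replicate 1 lay above both other young IL27RA- libraries and every old IL27RA- library. Old minus young was, on the log2 scale, 1.17 ± 0.47 in IL27RA+ cells (SE, 95% interval 0.16 to 2.18, adjusted p = 0.479), 0.63 ± 0.47 in IL27RA- cells and 0.90 ± 0.33 averaged over both (0.19 to 1.61, adjusted p = 0.210). In IL27RA- cells the difference ranged from 0.21 without young IL27RA- replicate 2 to 1.22 without young IL27RA- replicate 1. Without young IL27RA- replicate 1 the averaged difference was 1.20 ± 0.28 and passed the test (limma, adjusted p = 0.0362). Markers of megakaryocytes and platelets summed to 5028 to 12887 in old IL27RA+ libraries against 3006 to 4208 in young IL27RA+ libraries. In IL27RA- libraries they summed to 6962 to 9728 (old) against 3445 to 5831 (young). There Itgb3, at 2132 to 3981 against 225 to 1178, and Gp1bb, at 60.7 to 290 against 7.08 to 55.7, were higher without overlap. Pf4, at 23.9 to 135 against 40.5 to 205, overlapped, as did Vwf, Itga2b, Gp1ba and Gp9. Ppbp was at 0 in every IL27RA- library. The library with the highest sum, old IL27RA+ replicate 3, was also the highest for Gfi1b, but other libraries did not follow this order. Young IL27RA- replicate 1 had 3096 normalized counts of Gfi1b with a marker sum of 4833. Old IL27RA- replicate 1 had 1355 with a marker sum of 8402. The part of these transcripts in the Gfi1b differences was not tested, and in bulk samples more cells of a type and more RNA per cell cannot be told apart.

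Fli1, an ETS factor of stem cells, platelet precursors and endothelium, was on average lowest in young IL27RA+ cells. The young libraries held 5195, 7136 and 7637 normalized counts (IL27RA-) and 6439, 4654 and 5285 (IL27RA+). The old libraries held 6895, 8834 and 7341 (IL27RA-) and 7148, 6802 and 7966 (IL27RA+). The IL27RA+ groups of the 2 ages did not overlap, and the IL27RA- groups did. The log2 difference between the ages was 0.43 ± 0.20 in IL27RA+ cells (SE, 95% interval -0.007 to 0.87, adjusted p = 0.580), 0.22 ± 0.20 in IL27RA- cells and 0.32 ± 0.14 averaged over both (adjusted p = 0.307). In IL27RA- cells the difference ranged from 0.051 without young IL27RA- replicate 1 to 0.33 without young IL27RA- replicate 3.

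Erg, the other ETS factor, which is needed for stem cell self-renewal, was on average lowest in old IL27RA+ cells. The old libraries held 4901, 4006 and 4714 normalized counts (IL27RA-) and 2046, 2512 and 3730 (IL27RA+), and these groups did not overlap. The young libraries held 2807, 3856 and 4409 (IL27RA-) and 3448, 3727 and 3294 (IL27RA+), and these overlapped. On the log2 scale IL27RA+ minus IL27RA- was -0.76 ± 0.24 in old cells (SE, 95% interval -1.28 to -0.23, adjusted p = 0.531), -0.06 ± 0.24 in young cells and -0.41 ± 0.17 averaged over the ages (adjusted p = 0.568). The interaction was -0.70 ± 0.35 (-1.44 to 0.04, adjusted p = 0.942). Endothelium also makes Erg and Fli1, and 7 of 9 endothelial markers had a row in the table. Their summed level was 9703 to 9771 in old IL27RA- libraries and 4577 to 5756 in old IL27RA+ libraries. In young libraries, where Erg overlapped between the fractions, the sum was 6363 to 8263 (IL27RA-) and 4839 to 6324 (IL27RA+), without overlap. Cldn5 made up the largest part of the sum in old IL27RA- libraries, with 5073, 5025 and 4295 normalized counts against 1544, 2441 and 1678 in old IL27RA+ libraries. Sox18, at 911 to 1229 against 436 to 758, and Kdr, at 245 to 413 against 98.0 to 206, were likewise without overlap. So was Tie1, at 1752 to 1899 against 1188 to 1727. Pecam1, at 515 to 793 against 384 to 671, and Emcn, at 666 to 1180 against 715 to 754, overlapped. Plvap was at 0 in 7 of the 12 libraries, and Cdh5 and Sox17 gave no matched row. The part of these transcripts in the Erg difference was not tested.

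Runx1, the DNA-binding subunit of core binding factor, had its higher values in IL27RA+ cells among the young libraries and in IL27RA- cells among the old ones. The young libraries held 2575, 4116 and 3458 normalized counts (IL27RA-) and 4298, 4388 and 5193 (IL27RA+), without overlap. The old libraries held 4605, 4754 and 3957 (IL27RA-) and 3216, 3964 and 3878 (IL27RA+), where only old IL27RA+ replicate 2 reached the lowest IL27RA- library. The log2 difference between the fractions was 0.47 ± 0.21 in young cells (SE, 95% interval 0.02 to 0.93, adjusted p = 0.596) and -0.27 ± 0.21 in old cells. The interaction was -0.74 ± 0.30 (-1.38 to -0.10, unadjusted p = 0.0261, adjusted p = 0.924). Between the ages, every old IL27RA+ library lay below every young IL27RA+ library, with a difference of -0.33 ± 0.21 (adjusted p = 0.724), and the IL27RA- difference was 0.41 ± 0.21 (adjusted p = 0.445). Without young IL27RA- replicate 1, the lowest library for Runx1, the difference between the young fractions was 0.29 and the IL27RA- age difference 0.23.

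Mecom and Meis1, both needed by adult stem cells, did not stand apart by age. Mecom held 4468, 4015 and 4898 normalized counts in young IL27RA- libraries and 2887, 2913 and 3920 in young IL27RA+ libraries, which did not overlap, with a log2 difference of -0.47 ± 0.27 (SE, 95% interval -1.04 to 0.10, adjusted p = 0.670). In the old libraries it held 2090, 4421 and 4023 (IL27RA-) and 3577, 2744 and 3346 (IL27RA+). Old IL27RA- replicate 1, the library with the B cell transcripts, was the lowest of all 12 for Mecom. Meis1 held 9670 to 15238 normalized counts in young IL27RA- and 10474 to 12615 in young IL27RA+ libraries. In old cells it held 12216 to 14414 (IL27RA-) and 12515 to 13355 (IL27RA+), and its 4 ranges overlapped. Its pairwise log2 differences lay between -0.18 and 0.18.

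**Figure D3:**
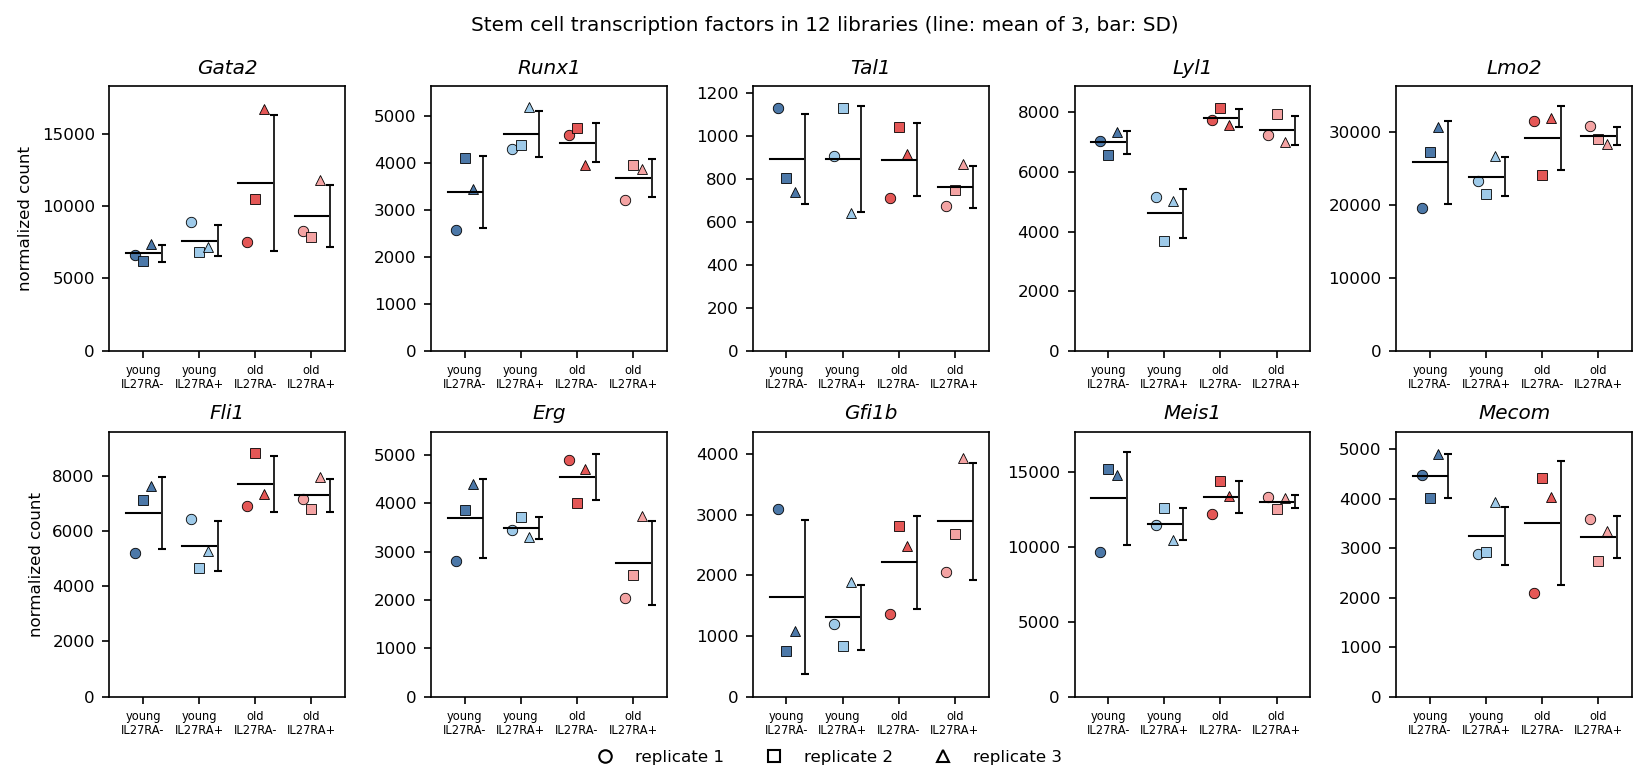
Normalized count of each factor (vertical axes from 0) in the 12 libraries, with the mean of 3 libraries as a line and the SD as a bar. Lyl1 is lowest in the 3 young IL27RA+ libraries, Erg is lowest in old IL27RA+ replicate 1, and Gfi1b spreads most.

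The genes whose groups did not overlap were also counted beside the share of all tested genes. In young cells 1 gene lay wholly higher in IL27RA+ libraries (Runx1) and 2 wholly lower (Lyl1 and Mecom), against 5.05% and 4.73% of all tested genes. In old cells 0 lay wholly higher and 1 wholly lower (Erg), against 7.23% and 5.38%. Between old and young IL27RA- cells 2 lay wholly higher (Gata2 and Lyl1) and 0 lower, against 7.8% and 6.71%. Between old and young IL27RA+ cells 4 lay wholly higher (Lyl1, Lmo2, Fli1 and Gfi1b) and 1 wholly lower (Runx1), against 9.09% and 7.78%. The comparisons share libraries in pairs, so their counts are not independent of one another. With genes this few, nothing particular to the group is read from the counts.

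The direction of the differences was described in the same way. Between the fractions, 8 of the 10 genes were negative in young cells (7 after quantile normalization) and 8 in old cells (5 after quantile normalization). Over all tested genes 52.31% and 51.94% were positive. Leaving out 1 library gave as few as 6 negative members in young cells and 6 in old cells. The members' median log2 differences were -0.12 and -0.08, beside 0.04 and 0.02 over all genes. Between the ages, 9 of the 10 genes were positive in IL27RA- cells (8 after quantile normalization) and 6 in IL27RA+ cells under either scaling. Of all tested genes 52.11% and 52.97% were positive, and without old IL27RA- replicate 2 the count in IL27RA- cells was 7. The median log2 differences of the members were 0.21 and 0.23, beside 0.04 and 0.05 over all genes. The members' median absolute difference was 0.174 in young and 0.147 in old cells between the fractions, beside 0.487 and 0.389 over all genes. Between the ages it was 0.269 in IL27RA- and 0.319 in IL27RA+ cells, beside 0.555 and 0.469. The median absolute difference of the 10 genes was thus below that of all tested genes in these 4 comparisons. Single genes exceeded it in each, such as Lyl1 in young cells, Erg in old cells, Gata2 in IL27RA- cells and Gfi1b in IL27RA+ cells. The 10 genes stood at percentiles 69.2 to 99.8 of level per kilobase, and no comparison with genes of like level was made. The lower median is therefore not read as particular to them.

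Agreement of the 10 genes across libraries was mostly weak. Over the 12 libraries the 45 pairs had a median Pearson r of 0.17 on the log2 scale. The values share library, depth and group, and r is given as a description. Lyl1 and Fli1 had the highest r, 0.76 (Spearman's rho 0.58), which was 0.40 for deviations from the group means, 0.36 without the 2 libraries farthest from the median of Lyl1 and 0.76 without those farthest for Fli1. Fli1 and Meis1 had r = 0.71 (rho 0.73), 0.66 for the deviations, 0.81 without the 2 libraries farthest from the median of Fli1 and 0.50 without those farthest for Meis1. Tal1 and Lmo2, whose proteins share a complex, had the lowest r, -0.75 (rho -0.57), and -0.84 for the deviations. Without the 2 libraries farthest from the median of Tal1 it was -0.48, so part of its size rested on those libraries. Young IL27RA- replicate 1 was the lowest of the 12 libraries for 3 of the genes (Runx1, Lmo2 and Meis1).

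**Figure D4:**
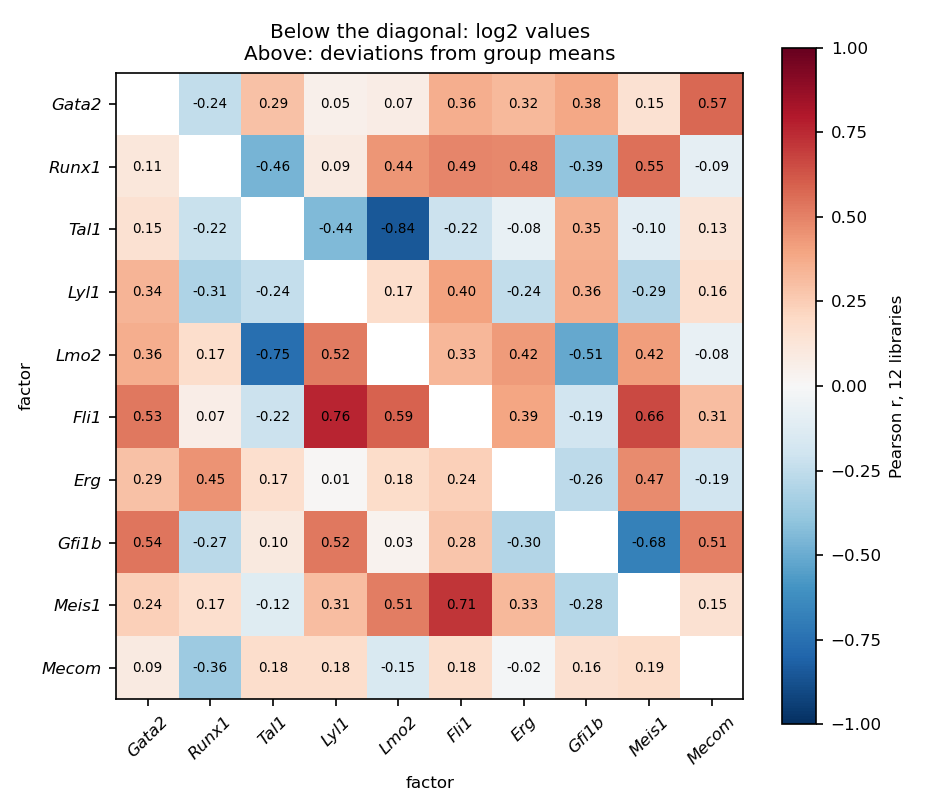
Pearson r between the factors over 12 libraries, for log2 values below the diagonal and for deviations from group means above it. Tal1 with Lmo2 is the deepest blue on both sides, and Lyl1 with Fli1 is the deepest red below the diagonal.

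The genes most like each factor over the 12 libraries were named by the highest Pearson r of log2 values among all tested genes with established names. Since each is the highest among all tested genes, the r values describe likeness only. For Lyl1 they were Dnm3 (r = 0.975), at 0 to 596 normalized counts, and Clu (0.945). For Lmo2 they were Zfp81 (0.934) and Mdfi (0.908), and for Tal1 Riok3 (0.884) and Rnf6 (0.879). Gata2 was followed by Tctex1d4 (0.902), which had at most 49.0 normalized counts, and Stk25 (0.894), and Gfi1b by Serinc3 (0.940). Fli1 was nearest to Pgam1-ps2 (0.925), at only 12.5 to 41.4 normalized counts, and Elavl4 (0.866), at 0 to 134. Erg was close to Rnf10 (0.878). Runx1 was nearest to Etv6 (0.826), itself an ETS factor of stem cells, and Usp2 (0.808), at 0 to 210 normalized counts. Meis1 was nearest to Fam113a (0.884) and Zfp958 (0.853), and Mecom to Cdkn2aip (0.877) and Pygb (0.872).

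Partners, paralogs, other stem cell regulators and genes described as targets of the factors were followed on lists of 79 genes, of which 78 had a row and 75 were tested. In 6 of the 7 comparisons 0 of the 75 passed the test (limma), with 4 to 11 (5.33% to 14.7%) at an unadjusted p under 0.05, where the shares of all genes were 5.19% to 12.5%. In the age difference averaged over the fractions 1 passed, as a gene higher in old cells, against 1.38% of all genes, and 16 (21.3%) had an unadjusted p under 0.05, against 15.1% of all genes.

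The gene that passed was Id2, a helix-loop-helix protein without a DNA-binding region that ties up E proteins, the partners of Tal1 and Lyl1. It held 309, 113 and 271 normalized counts in young IL27RA- libraries and 173, 251 and 255 in young IL27RA+ libraries. In the old libraries it held 491, 1019 and 762 (IL27RA-) and 864, 989 and 533 (IL27RA+), so that each old library lay above each young one. Id2 was higher in old cells by 1.78 ± 0.35 on the log2 scale (SE, 95% interval 1.04 to 2.52, adjusted p = 0.0162). The difference was 1.77 ± 0.49 in IL27RA- cells (adjusted p = 0.132) and 1.78 ± 0.49 in IL27RA+ cells (adjusted p = 0.186). The averaged call was lost without old IL27RA- replicate 2 (adjusted p = 0.0584), old IL27RA+ replicate 1 (0.0532) or old IL27RA+ replicate 2 (0.0610), with differences of 1.66, 1.74 and 1.69. None of the other 13 genes on the list of complex partners and inhibitors passed, among them the E proteins Tcf3, Tcf4 and Tcf12 and the LIM adaptor Ldb1. Id3, a relative of Id2, was at 0 in 7 of the 12 libraries and reached at most 68.0 normalized counts.

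**Figure D5:**
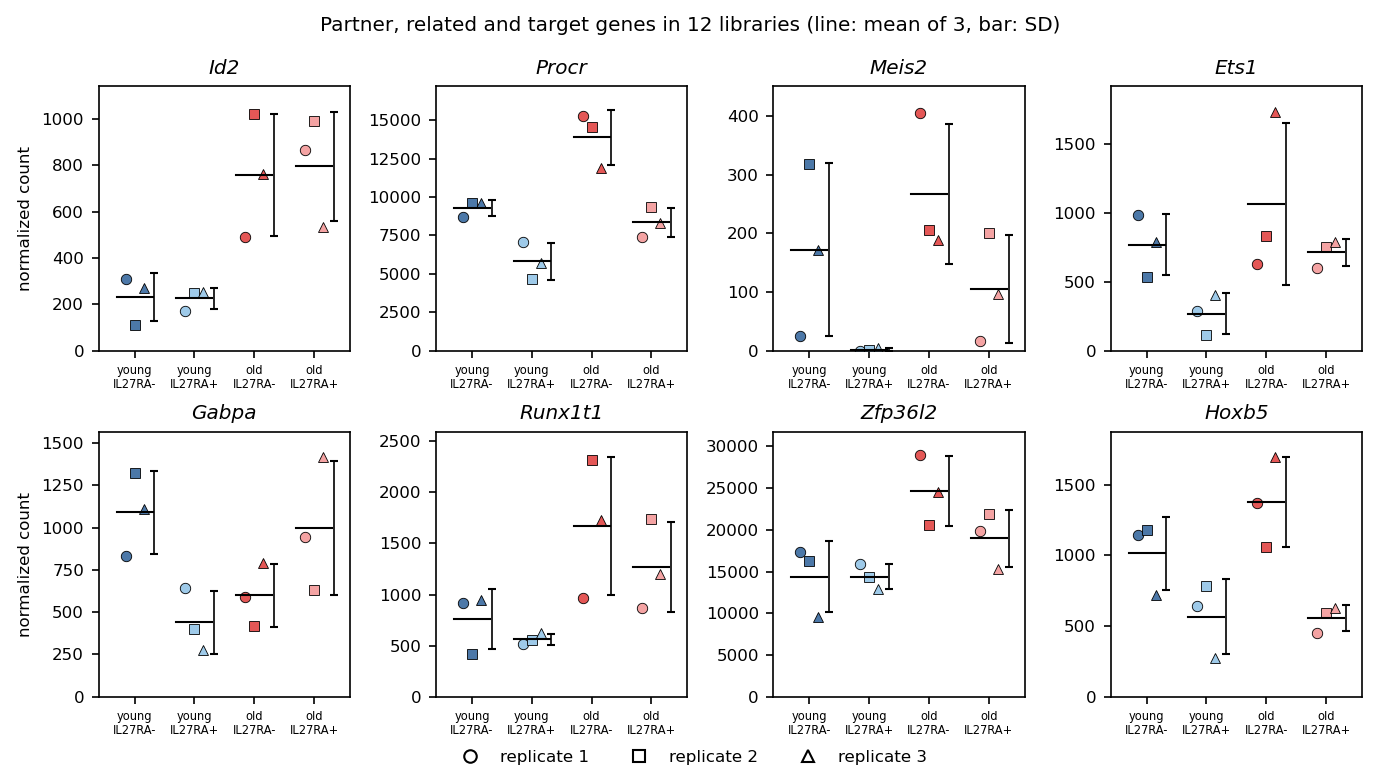
Normalized count of 8 partner, related or target genes in the 12 libraries, with the mean of 3 libraries as a line and the SD as a bar. The 6 old libraries of Id2 lie above its 6 young ones, and Procr is higher in IL27RA- than in IL27RA+ libraries at each age.

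Procr, the protein C receptor that marks stem cells and is described as a heptad target, did not pass the test, although its groups did not overlap in any of the 4 pairwise comparisons. It held 8703 to 9582 normalized counts in young IL27RA-, 4654 to 7069 in young IL27RA+, 11868 to 15274 in old IL27RA- and 7427 to 9323 in old IL27RA+ libraries. The log2 difference was -0.71 ± 0.14 between the fractions, averaged over the ages (SE, 95% interval -1.01 to -0.42, adjusted p = 0.0565), and 0.56 ± 0.14 between the ages, averaged over the fractions (0.26 to 0.85, adjusted p = 0.0556). Cd34, an antigen of progenitors on the same list, differed by -0.63 ± 0.18 between the ages (adjusted p = 0.0950). The list held 12 genes, of which 11 were tested and 0 passed in any comparison.

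The families of the factors held further genes whose values differed without passing. Meis2, the paralog of Meis1, was at 0, 1.14 and 5.02 normalized counts in the young IL27RA+ libraries, at 25.5, 319 and 172 in young IL27RA-, at 405, 207 and 190 in old IL27RA- and at 17.6, 200.2 and 97.3 in old IL27RA+ libraries. Its log2 difference between the young fractions was -5.60 ± 1.25 (SE, adjusted p = 0.223), in which the low group lay near the floor of 3 reads.

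Ets1, an ETS relative of Fli1 and Erg, held 290 (replicate 1), 112 (replicate 2) and 408 (replicate 3) normalized counts in young IL27RA+ libraries and 540 to 1734 in the other 9. The log2 difference between the young fractions was -1.66 ± 0.50 (SE, adjusted p = 0.385). Gabpa, another ETS factor, had an interaction of 2.08 ± 0.59 (95% interval 0.82 to 3.33, unadjusted p = 0.00311, adjusted p = 0.847). It held 832 to 1324 normalized counts in young IL27RA-, 273 to 642 in young IL27RA+, 416 to 792 in old IL27RA- and 629 to 1419 in old IL27RA+ libraries. Runx1t1, a corepressor best known as the fusion partner of RUNX1 in leukemia, was higher in the old groups, with an averaged log2 difference of 1.12 ± 0.29 (adjusted p = 0.0620). Runx2, a paralog of Runx1, had no comparison with an unadjusted p under 0.05. Etv6 and the other ETS factors on the list also did not pass.

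Gata1, the GATA factor of red cell and platelet precursors, was at 0 in all 3 young IL27RA- libraries and at 369, 110 and 22.6 normalized counts in the young IL27RA+ libraries. In old cells it was at 0, 0 and 75.3 (IL27RA-) and at 357, 0.958 and 343 (IL27RA+). The young fractions did not overlap, and their adjusted p was 0.407. Erythroid markers, a list to which Gata1 belongs, summed to 662 to 5276 normalized counts in young IL27RA+ against 298 to 666 in young IL27RA- libraries. The highest sum was that of young IL27RA+ replicate 2, in which Car1 alone held 3812. In old libraries the sums were 295 to 1006 (IL27RA+) and 306 to 489 (IL27RA-). Gata3, a paralog with roles in lymphoid cells, differed in no comparison at an unadjusted p under 0.05. Gfi1, the paralog of Gfi1b, and Kdm1a and the other corepressors on its list did not pass either. Within that list Rcor3 lay wholly lower in old than in young IL27RA- libraries, with a log2 difference of -0.62 ± 0.28 (SE, adjusted p = 0.391).

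Among other stem cell regulators, Hoxb5, a homeobox gene used to mark long-term stem cells, held 449 to 627 normalized counts in old IL27RA+ libraries and 1059 to 1695 in old IL27RA- libraries. The averaged log2 difference between the fractions was -1.11 ± 0.28 (SE, 95% interval -1.72 to -0.51, adjusted p = 0.195). Prdm16, the paralog of Mecom, held 904 to 1030 normalized counts in old IL27RA+ and 1303 to 2385 in old IL27RA- libraries, with a difference of -0.83 ± 0.36 (adjusted p = 0.879), and Ctbp1, a corepressor on its list, had no comparison with an unadjusted p under 0.05. Zfp36l2, an RNA-binding protein rather than a transcription factor, differed by 0.60 ± 0.17 between the ages, averaged over the fractions (adjusted p = 0.0897). Hoxb5 and Prdm16 overlapped between the young fractions, and neither interaction had an unadjusted p under 0.05.

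Of the remaining marker lists, cell cycle genes summed to 2301 to 2553 normalized counts in old IL27RA- libraries and to 4214 to 15188 in the other 9. Progenitor markers summed to 6630 to 11901 in young IL27RA-, 7542 to 10701.5 in young IL27RA+, 6271 to 6984 in old IL27RA- and 6496 to 6637 in old IL27RA+ libraries. Among them Mpo held 27.3, 101 and 79.0 in the young IL27RA+ libraries and was at 0 in the other 9. Mast cell, neutrophil and marrow stroma markers summed to at most 463, 265 and 468 normalized counts, and the defining markers Mcpt8 and Adipoq gave no matched row. Neutrophil markers summed to 257 to 265 in young IL27RA+ and 122 to 187 in old IL27RA+ libraries. In IL27RA- libraries they summed to 0.716 to 80.4 (young) and 11.6 to 82.9 (old). Cd48, Elane, Lcn2 and Col3a1 stayed under 10 normalized counts in every library. The part of these transcripts in the values of the 10 genes was not tested.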

How the data were processed

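RNA was measured by sequencing 12 libraries of 50 sorted mouse stem cells. Per the submitters' processing notes, FastQC 0.11.5, TopHat2 2.1.1, HTSeq and DESeq2 were used, with no role or order named. Neither the genome build nor the strand setting of the counting is stated in the sources used here. The authors deposited log2 values for each gene in each library. Judged by the values, these are log2(count / size factor + 1). In 1 column, of young IL27RA- replicate 2, a damaged line breaks the range of log2 values, so that column was entered as a deposited score and then read as log2 like the others, without that line. Of 20473 lines, 1 damaged line and 15 identical repeats were left out, and 19007 of the 20457 genes (92.9%) matched GENCODE M21 by identifier. Undoing these steps recovered whole reads, within 0.001 reads, for 100% of values. Normalized counts undo only the logarithm and the added 1.

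The test was limma-trend (limma 3.58.1 in R 4.3.3) on the log2 values of the 12 libraries together, 1 mean per group, with 8 residual and 6.58 prior degrees of freedom. A gene was tested if 3 or more of the 12 libraries had 10 or more on the linear scale. The p-values were adjusted by Benjamini-Hochberg over the 14803 genes tested, with a threshold of 0.05. Because 1 is added before the logarithm, differences of low genes are understated. Depth was 11669083 to 24153167 reads in genes per library, and amplified reads without molecular identifiers are not independent molecules. The alternatives were no filter, a filter on 6 of 12 libraries, a pseudocount of 10, TMM scaling, quantile normalization, only the groups compared, a block on the replicate number, weights per library and leaving out each library. The voom fit and leaving out both libraries of lowest weight together were added after the data were seen. The fit was tested on simulated counts before use.

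The 10 genes, the partner and marker lists and the tests were chosen with earlier results of these data known. Named were all 10 genes, on each list every gene that passed and those 2 with the smallest p between groups, for each of the 10 genes the 2 most alike, and Il27ra; predicted genes were left out of the most alike. Other genes are named only as members of a list, and a few genes that the rule picks are not reported here. No library was left out of the main fit.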

Additional observations from a re-analysis of the deposited data

How the results depend on the processing

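The 70 differences of the 10 genes were recomputed under 22 settings, which gave 1510 alternative values. Of these, 1458 kept their direction and their side of the threshold, 51 reversed and 1 newly passed; the cause was not tested. The number of the 10 genes that passed stayed at 0 under every alternative except in the averaged age difference, where leaving out 1 library gave 0 to 1 (1, Gfi1b, without young IL27RA- replicate 1). The reversals concern 22 differences, each of at most 0.54 on the log2 scale, and none of them had passed the test. After quantile normalization the log2 difference between the young fractions was 0.0053 for Tal1, and between the old fractions 0.0012 for Lyl1, 0.0021 for Fli1 and 0.064 for Meis1. Under the same scaling old minus young was -0.14 for Meis1 in IL27RA- cells, and averaged over the fractions -0.016 for Runx1 and -0.043 for Meis1. The averaged sort difference became 0.025 for Gata2 and 0.0204 for Lmo2. With voom it was 0.0139 for Tal1 between the young fractions and 0.0063 for Mecom between the ages in IL27RA+ cells. With library weights the latter was 0.0026, and the averaged sort difference of Gfi1b was -0.032. With both libraries of lowest weight left out, the averaged sort difference was 0.0196 for Lmo2 and -0.24 for Gfi1b, and the interaction of Meis1 was -0.033.

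Leaving out 1 library at a time reversed these differences, given as lowest to highest. Between the young fractions they ran from -0.20 to 0.21 for Tal1, -0.28 to 0.042 for Lmo2, -0.24 to 0.083 for Erg and -0.56 to 0.45 for Gfi1b. Between the old fractions they ran from -0.53 to 0.046 for Gata2, -0.11 to 0.093 for Lmo2, -0.14 to 0.035 for Fli1, -0.093 to 0.0265 for Meis1 and -0.40 to 0.14 for Mecom. Between the ages they ran from -0.12 to 0.19 for Tal1 and -0.18 to 0.15 for Meis1 in IL27RA- cells, and from -0.082 to 0.14 for Mecom in IL27RA+ cells. Averaged over the fractions they ran from -0.049 to 0.12 for Runx1 and -0.15 to 0.066 for Erg. The averaged sort difference ran from -0.18 to 0.11 for Gata2, -0.13 to 0.033 for Lmo2 and -0.0825 to 0.43 for Gfi1b. The interaction ran from -0.018 to 0.31 for Lmo2 and -0.052 to 0.96 for Gfi1b.

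No label says that the replicate numbers pair the samples. Over 18 pairs of libraries with the same number, deviations from the group means correlated at -0.05 to 0.11, and 6 of the 12 libraries correlated best with their own number. With means of only 3 libraries, these correlations cannot tell whether libraries of the same number shared an animal or a batch. With a replicate block 0 of the 10 genes passed in every comparison. The counts over all genes moved more. In the order of the report's 7 comparisons, 3, 3, 99, 63, 274, 28 and 0 genes passed. Leaving out 1 library gave 0 to 50, 1 to 24, 31 to 271, 4 to 96, 140 to 431, 6 to 96 and 0 to 5. The other settings gave 0 to 8, 0 to 86, 0 to 104, 13 to 138, 193 to 348, 7 to 45 and 0. With 3 libraries per group, the 95% intervals reached 0.39 to 1.01 to either side of the pairwise differences and 0.27 to 0.71 of the averaged ones, which limits what could be detected.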
